A study of Mus musculus with 18 samples.

Results

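The mouse zinc finger genes with symbols from Zfp700 to Zfp999 were examined in ageing skeletal muscle. They were chosen by symbol alone among the gene names of the RNA-seq table, and numbered 98 of 23420 genes. Of these, 87 had a mean normalized count of at least 10 over the 9 libraries and were tested, among 13178 genes tested in all. RNA was sequenced from the hindlimb muscle of female C57BL/6J mice aged 2 months (2 m), 20 months (20 m) or 28 months (28 m), with 3 mice per age and 1 library per mouse, and no mouse carried a described allele or treatment. Methylated DNA was captured with a methyl-binding domain and sequenced (MBD-seq) from the same muscle and from magnetically sorted spleen T cells, with the DNA of 3 mice pooled per age. The comparisons asked whether these genes differed between 2 m, 20 m and 28 m muscle.

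Many proteins of this kind carry, beside an array of C2H2 zinc fingers that reads DNA sequence, a KRAB domain that recruits the co-repressor Trim28. Trim28 in turn brings the histone H3 lysine 9 methyltransferase Setdb1 and heterochromatin proteins to the bound site, and in this way many KRAB zinc finger proteins silence endogenous retroviruses and other retroelements. The genes lie in tandem clusters that grew by duplication, so that neighbours resemble each other in sequence.

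A protein model was found for 96 members, and 73 of these held the letters of a KRAB A box. The remaining 23 did not, and Zfp783 and Zfp862 had no protein model, so that 25 members are described below as having no KRAB letters. The members had a median of 11 C2H2 fingers, from 0 in Zfp703, Zfp750, Zfp839 and Zfp957 to 23 in Zfp748, Zfp781 and Zfp788. They lay on 16 chromosomes, and 43 of them lay in 7 runs of at least 4 members with neighbours at most 500 kb apart. The largest run held 10 members, all with KRAB letters, at chr17:21566978-22867134 of GRCm38.

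RefSeq promoters were matched for 84 members. Of these, 6 are shown, 250 bases upstream of the start, with every CG dinucleotide in capitals, because the methyl-binding domain binds methylated CG. The first 4 belong to members that differed between ages, and the last 2 to the members with the lowest and the highest muscle promoter signal at 2 months among those with an annotated promoter. Each is written 5′ to 3′ along the strand of its gene, with its position in GRCm38.p6 after the set.
Zfp710: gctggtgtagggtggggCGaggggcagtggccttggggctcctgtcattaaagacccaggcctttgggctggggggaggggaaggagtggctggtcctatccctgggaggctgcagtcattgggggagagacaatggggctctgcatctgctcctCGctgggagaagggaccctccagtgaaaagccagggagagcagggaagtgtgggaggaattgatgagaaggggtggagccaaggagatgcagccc
Zfp715: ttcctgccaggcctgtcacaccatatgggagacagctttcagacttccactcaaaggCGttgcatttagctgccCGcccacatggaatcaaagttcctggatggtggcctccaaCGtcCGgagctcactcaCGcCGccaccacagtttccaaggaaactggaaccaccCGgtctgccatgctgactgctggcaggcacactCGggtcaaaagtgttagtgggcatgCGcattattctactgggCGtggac
Zfp770: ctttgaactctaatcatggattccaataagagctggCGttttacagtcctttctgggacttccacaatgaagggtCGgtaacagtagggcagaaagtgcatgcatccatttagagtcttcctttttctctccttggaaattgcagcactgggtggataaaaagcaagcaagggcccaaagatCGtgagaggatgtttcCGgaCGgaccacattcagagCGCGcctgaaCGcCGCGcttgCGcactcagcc
Zfp839: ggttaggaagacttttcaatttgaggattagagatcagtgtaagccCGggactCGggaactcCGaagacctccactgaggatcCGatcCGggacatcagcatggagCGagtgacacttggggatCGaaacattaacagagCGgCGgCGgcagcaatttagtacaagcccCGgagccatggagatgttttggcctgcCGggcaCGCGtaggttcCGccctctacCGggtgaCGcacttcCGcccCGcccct
Zfp811: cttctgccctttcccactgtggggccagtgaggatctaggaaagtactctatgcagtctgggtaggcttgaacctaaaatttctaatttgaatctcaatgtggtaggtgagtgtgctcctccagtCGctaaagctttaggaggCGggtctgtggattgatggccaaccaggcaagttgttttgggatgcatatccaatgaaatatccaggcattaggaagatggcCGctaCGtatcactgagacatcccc
Zfp936: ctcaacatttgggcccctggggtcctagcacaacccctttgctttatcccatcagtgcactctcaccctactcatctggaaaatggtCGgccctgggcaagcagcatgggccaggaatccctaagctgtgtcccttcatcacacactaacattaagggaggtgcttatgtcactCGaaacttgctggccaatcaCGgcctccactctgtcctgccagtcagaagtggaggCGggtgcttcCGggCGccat
The windows are chr7:80024564-80024813 on the plus strand for Zfp710, chr7:43313301-43313550 on the minus strand for Zfp715, chr2:114201433-114201682 on the minus strand for Zfp770, chr12:110850029-110850278 on the plus strand for Zfp839, chr17:32809932-32810181 on the minus strand for Zfp811 and chr7:43177340-43177589 on the plus strand for Zfp936. They held 2, 10, 11, 19, 4 and 6 CG in that order. Over the 84 members the median was 8, with a range of 1 to 44, and 42.9% of members held at least 10. Over all 32851 RefSeq promoters the median was 6, and 37.8% held at least 10.

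The libraries held 20203833 to 71115244 reads on genes. The ribosomal precursor Rn45s took 8.81% to 10.4% of them in the libraries numbered 3 and 24.0% to 30.4% in those numbered 1 and 2. Muscle fibre markers were abundant in all 9 libraries, with a summed normalized count of 5099850 to 6599280, as the tissue label gives. The library of 2 m mouse 1 stood apart in holding marrow granulocyte markers, whose sum was 3464 there and 2.76 to 49.3 in the other 8, and bone and cartilage markers, whose sum was 1794 there and 5.06 to 104 elsewhere. It was also highest in red cell markers, at 831 beside 99.6 to 366 elsewhere, and in B cell markers, at 172 beside 15.9 to 118. Fibroblast markers summed to 35292 to 67163 at 2 months and 18100 to 24213 at the later ages. Adipocyte markers summed to 1480 to 4302 at 2 months, 459 to 662 at 20 months and 615 to 1619 at 28 months. Of the 5, 4 passed as lower at 20 against 2 months, where 7.13% of all genes tested did. At 28 against 2 months 1 passed as lower, where 6.24% of all genes tested did. Of the 4 fibroblast markers, 2 passed as lower in both of these comparisons. Macrophage markers summed to 1500 to 2307 at 2 months and 1326 to 1399 at 20 months. Schwann cell markers summed to 3905 to 4753 and 2431 to 3680. In each, 1 of the 4 tested passed as lower at 20 months, and 28 months overlapped 2 months. Satellite cell markers summed to 114 to 162 at 2 months and 52.5 to 92.5 at 28 months, and neither passed. The part of these markers in the differences below was not tested, and in bulk muscle fewer cells of a type and less RNA per cell cannot be told apart.

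Levels are given as normalized read counts, which are reads per gene divided by a size factor for each library. The members were mostly expressed at a low level, with a median mean of 140 over the 98 and of 169 over the 87 tested, beside 476 over all genes tested and 228 over the 211 tested genes from Zfp1 to Zfp699. Means were under 1 for 3 members, 1 to 10 for 8, 10 to 100 for 32, 100 to 500 for 38, 500 to 1000 for 11 and at least 1000 for 6. Those 6 members held 34.6% of the summed level of the 98. Members with KRAB letters had a median mean of 94.0, and those without had 462.

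**Figure D1:**
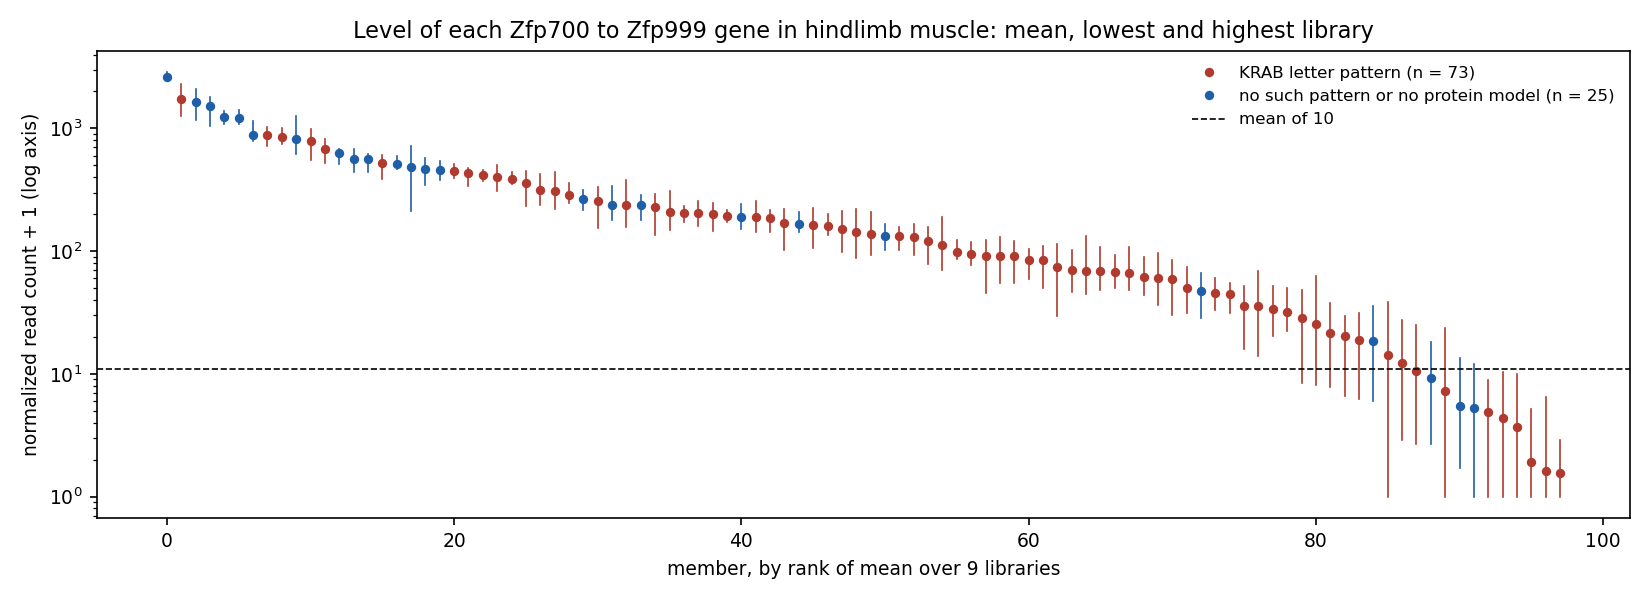
Mean normalized count plus 1 (log axis) of each of the 98 members in hindlimb muscle, ordered by rank, with lines from the lowest to the highest of the 9 libraries, red for the 73 members with KRAB letters and blue for the other 25. Most of the highest members are blue, and 11 members lie below the dashed line at a mean of 10.

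Zfp706, a very short protein of 76 residues with 1 finger, had the highest mean. Its normalized count was 2690, 2659 and 2881 at 2 months, 2494, 2786 and 2534 at 20 months, and 2776, 2431 and 2520 at 28 months. All 3 ages overlapped, and the 28 m against 2 m difference was -0.09 on the log2 scale with a 95% interval of -0.27 to 0.08. Of the transcript of Zfp706, 9.80% was near identical to Gm10193, and how many of its reads had no unique alignment was not measured.

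Zfp871, which has KRAB letters, followed with a mean of 1749. It was at 1636, 1748 and 1264 at 2 months, 1823, 2119 and 1599 at 20 months, and 2290, 1713 and 1553 at 28 months, and the ages overlapped. Zfp768 had a mean of 1246 and was at 1262, 1163 and 1304 at 2 months, 1382, 1363 and 1248 at 20 months, and 1091, 1236 and 1163 at 28 months. Zfp740 was at 1402, 1293 and 1211 at 2 months, 1201, 1173 and 1221 at 20 months, and 1173, 1185 and 1076 at 28 months. For Zfp740, whose exons overlap those of Csad on the opposite strand, every 28 m library lay below every 2 m library, and the difference of -0.18 did not pass the test (adjusted p = 0.184, limma). The other members with a mean over 1000, Zfp703 and Zfp770, differed between ages and are described below. Per kb of transcript the order was Zfp706 at 598, Zfp768 at 554, Zfp703 at 493 and Zfp771 at 370.

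The 11 members under a mean of 10 were Zfp819, Zfp735, Zfp872, Zfp936, Zfp941, Zfp811, Zfp831, Zfp711, Zfp781, Zfp957 and Zfp820, and 8 of them had KRAB letters. The 2 nearest below the limit were Zfp820 at 9.61 and Zfp957 at 8.30, and the 2 nearest above it were Zfp964 at 11.4 and Zfp808 at 13.2. Zfp820 was at 6.69, 7.05 and 15.2 at 2 months, 7.47, 1.69 and 24.0 at 20 months, and 3.80, 5.52 and 15.1 at 28 months. Zfp957 was at 8.92, 15.9 and 10.8 at 2 months, 1.87, 1.69 and 8.17 at 20 months, and 17.1, 2.76 and 7.55 at 28 months. The spread between libraries was wide, and neither member was tested. Of the members in this low range, Zfp781 is near identical to Gm3055 over 99.2% of its transcript, and among the tested members Zfp960 is near identical to Zfp97 over 99.4%, so reads of either pair could be split or lost. Zfp781 held 38 reads over the 9 libraries and was at 0, 0 and 1.44 at 2 months, 0, 5.06 and 4.36 at 20 months, and 19.0, 4.14 and 22.6 at 28 months. Its 28 m libraries lay above its 2 m libraries, and with no filter on low values it passed between 28 and 2 months (adjusted p = 0.0287, limma), where 8.01% of all genes did.

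Between 20 m and 2 m muscle, 3 of the 87 members passed the test at an adjusted p under 0.05 (limma, adjusted over all genes tested), where 16.6% of all genes tested passed. Zfp770 and Zfp839 were higher at 20 months, as were 9.42% of all genes, and Zfp710 was lower, as were 7.13%. All 3 lacked KRAB letters. By level, the test called 0 of the 32 members with means of 10 to 100, 1 of 38 between 100 and 500, 1 of 11 between 500 and 1000 and 1 of 6 above, where it called 6.94%, 14.4%, 17.4% and 24.6% of all genes at those levels. Among Zfp1 to Zfp699, 21 of 211 passed.

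Zfp770, at chr2:114193461-114201432 on the minus strand, encodes 11 fingers and no KRAB letters, and its promoter is among those printed above. Its normalized count was 1036, 1327 and 1255 at 2 months, 1790, 1670 and 1742 at 20 months, and 1659, 1498 and 1731 at 28 months. Every 20 m and 28 m library lay above every 2 m library. It rose by 0.53 ± 0.10 (SE, 3 libraries per age) on the log2 scale at 20 months, a fold of 1.44 (adjusted p = 0.00427, limma), and stood 0.44 higher at 28 than at 2 months (adjusted p = 0.0132, limma). The 28 m against 20 m difference was -0.09 with an interval of -0.31 to 0.13. Without 2 m library 1, which had the lowest value and the marrow and bone markers, the 20 m call held (adjusted p = 0.0169, limma) and the 28 m call was lost (adjusted p = 0.0534, limma), as it was without 28 m library 1 (adjusted p = 0.0522, limma) or 28 m library 3 (adjusted p = 0.0567, limma).

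Zfp839, at chr12:110850279-110869998 on the plus strand, held no C2H2 finger of the usual spacing in its 921 residues. It was at 348, 418 and 388 at 2 months, 575, 553 and 519 at 20 months, and 455, 475 and 428 at 28 months. The 3 ages did not overlap, with 20 months highest and 2 months lowest. It rose by 0.52 ± 0.11 on the log2 scale at 20 months, a fold of 1.43 (adjusted p = 0.00915, limma). The lower value at 28 than at 20 months, -0.28, did not pass (adjusted p = 0.413, limma), nor did the 0.24 between 28 and 2 months (adjusted p = 0.19, limma).

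Zfp710, at chr7:80024814-80092751 on the plus strand, encodes 11 fingers and no KRAB letters, and the promoter window shown held 2 CG. It was at 907, 1253 and 905 at 2 months, 659, 741 and 684 at 20 months, and 803, 812 and 621 at 28 months. Every later library lay below every 2 m library. It fell by 0.54 ± 0.14 on the log2 scale at 20 months, to a fold of 0.688 (adjusted p = 0.0225, limma), and its 28 m difference of -0.45 did not pass (adjusted p = 0.0552, limma). The 28 m difference passed with a term for the libraries numbered 3 (adjusted p = 0.0260, limma) and in DESeq2 on the recovered reads (adjusted p = 0.0299). The 20 m call was lost without 2 m library 2, where the difference was -0.38 (adjusted p = 0.0682, limma), without 20 m library 1 (adjusted p = 0.0867, limma) or without 20 m library 3 (adjusted p = 0.0574, limma).

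The next members in order of p at 20 months did not pass the adjustment. Zfp862 was at 319, 199 and 336 at 2 months, 211, 177 and 180 at 20 months, and 243, 217 and 257 at 28 months (log2 difference at 20 months -0.55, adjusted p = 0.0713, limma). Zfp866, with KRAB letters and 12 fingers, was at 796, 812 and 631 at 2 months, 525, 655 and 582 at 20 months, and 727, 666 and 661 at 28 months (-0.34, adjusted p = 0.077, limma). Zfp759, with KRAB letters and 21 fingers, was at 105, 122 and 145 at 2 months, 191, 152 and 225 at 20 months, and 188, 134 and 208 at 28 months (0.60, adjusted p = 0.0794, limma). Of these, Zfp759 alone had groups that did not overlap at 20 months. With a term for the libraries numbered 3 in the fit, which called 21.6% of all genes, Zfp759 and Zfp866 passed, and Zfp862 passed in DESeq2 on the recovered reads, which called 19.4%. Zfp946, with KRAB letters and 11 fingers, was named after its values were seen, since it also passed with that term. It was at 163, 152 and 191 at 2 months, 217, 231 and 306 at 20 months, and 203, 148 and 242 at 28 months (0.56 at 20 months, adjusted p = 0.0796 without the term, limma), and its 20 m libraries lay above its 2 m libraries. At an unadjusted p under 0.05 there were 11 members, 6 higher and 5 lower, where 31.5% of all genes stood.

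Between 28 m and 20 m muscle, no member passed the test, where 0.379% of all genes tested did, 0.212% higher and 0.167% lower. Counting models on the recovered reads also called 0 members, edgeR where it called 0.387% of all genes and DESeq2 where it called 1.73%. At an unadjusted p under 0.05 there were 4 members, Zfp777, Zfp703, Zfp839 and Zfp768, where 10.6% of all genes stood. Zfp777, with KRAB letters and 9 fingers, had the smallest p. It was at 894, 823 and 928 at 2 months, 1033, 1011 and 944 at 20 months, and 892, 737 and 721 at 28 months. Its 28 m libraries lay below its 20 m libraries, by -0.35 with an interval of -0.58 to -0.13 (adjusted p = 0.217, limma). Zfp707, with KRAB letters, was at 98.1, 104 and 88.1 at 2 months, 80.3, 94.5 and 94.8 at 20 months, and 58.8, 62.1 and 75.5 at 28 months, with every 28 m library below the others (28 m against 2 m, -0.56, adjusted p = 0.111, limma). Zfp942, with KRAB letters, was at 259, 257 and 363 at 2 months, 325, 356 and 423 at 20 months, and 311, 236 and 311 at 28 months.

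Between 28 m and 2 m muscle, 3 members passed, Zfp703, Zfp770 and Zfp715, all higher at 28 months, where 13.8% of all genes tested passed, 7.53% higher and 6.24% lower. Zfp710, which was lower, passed in some of the alternative fits, as given above. This comparison shares its 2 m libraries with the comparison at 20 months. Zfp703 and Zfp770 had no KRAB letters, and Zfp715 had them. All 3 calls were lost when the library of 2 m mouse 1 was left out, and also when the 3 libraries numbered 3 were left out together.

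Zfp703, a transcriptional co-repressor of the Noc, Elbow and Tlp family, lies at chr8:26977336-26981462 on the plus strand. It was at 1168, 1619 and 1193 at 2 months, 1711, 1325 and 1698 at 20 months, and 1991, 1870 and 2080 at 28 months. All 28 m libraries lay above all others, and 2 and 20 months overlapped. It rose by 0.59 ± 0.13 on the log2 scale from 2 to 28 months, a fold of 1.51 (adjusted p = 0.0113, limma), and the differences of 0.26 at 20 against 2 months (adjusted p = 0.209, limma) and 0.34 at 28 against 20 months (adjusted p = 0.388, limma) did not pass. Without 2 m library 1 the difference was 0.51 (adjusted p = 0.0522, limma).

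Zfp715, with KRAB letters and 19 fingers, lies at chr7:43296523-43313300 on the minus strand, in the same run as Zfp936, and 10 CG stand in its printed promoter. It was at 388, 439 and 492 at 2 months, 529, 526 and 536 at 20 months, and 605, 544 and 593 at 28 months. The 3 ages did not overlap, in the order of age. It rose by 0.41 ± 0.11 on the log2 scale from 2 to 28 months, a fold of 1.33 (adjusted p = 0.032, limma). The call was lost without 2 m library 1 (adjusted p = 0.122, limma), 2 m library 2 (adjusted p = 0.0591, limma), 20 m library 1 (adjusted p = 0.0501, limma), 28 m library 1 (adjusted p = 0.109, limma) or 28 m library 3 (adjusted p = 0.0919, limma), and in a fit of the 2 m and 28 m libraries only (adjusted p = 0.0760, limma). Zfp783 was at 46.8, 59.9 and 65.7 at 2 months, 44.8, 47.2 and 49.6 at 20 months, and 30.4, 27.6 and 43.4 at 28 months (28 m against 2 m, -0.76, adjusted p = 0.118, limma), and its exons overlap those of Zfp956 on the same strand.

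**Figure D2:**
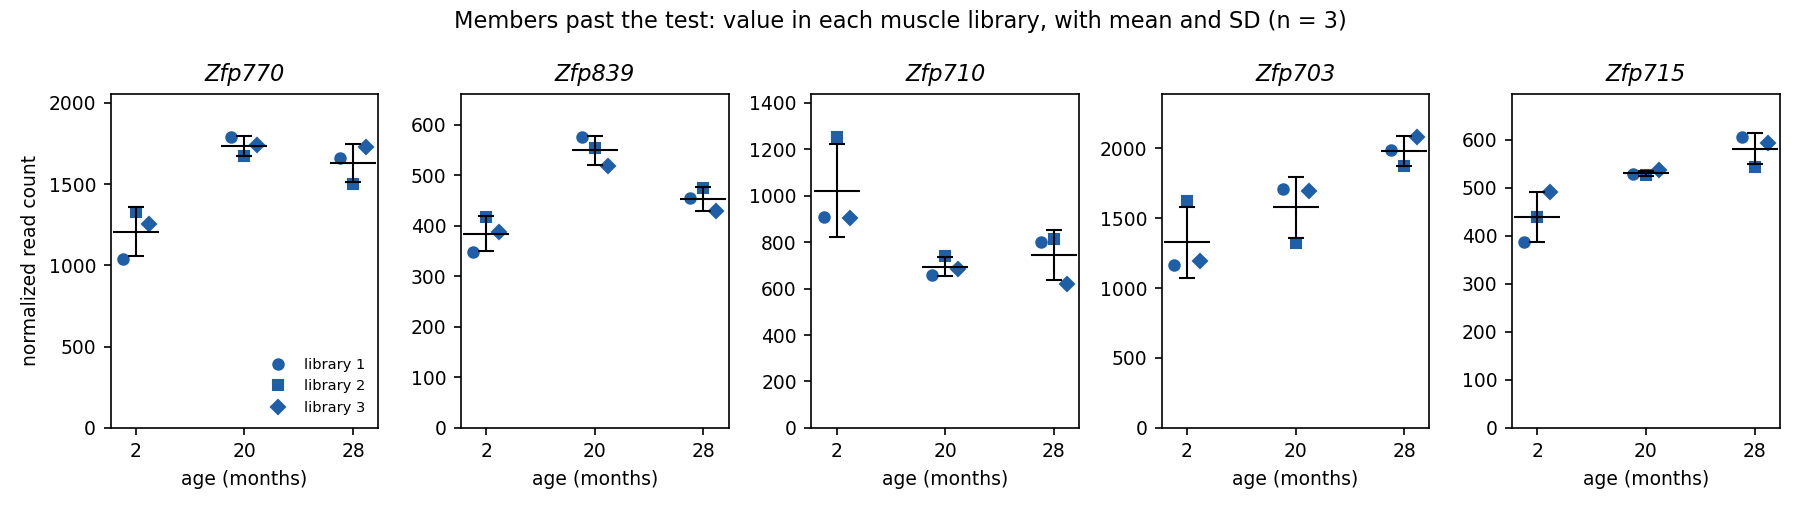
Normalized read count of the 5 members that passed the test in a comparison, by age, with a point per library (3 per age) and the mean ± SD of each age (n = 3). Zfp770 and Zfp839 stand higher at 20 than at 2 months, Zfp710 lower, and Zfp703 and Zfp715 are highest at 28 months.

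In 1 test over the 3 ages, a moderated F test, 4 members differed (Zfp770, Zfp839, Zfp703 and Zfp710), where 16.0% of all genes tested did. Zfp770 alone passed this test without 2 m library 1 (9.28% of all genes), and Zfp770 and Zfp703 without 20 m library 1 (9.95%) or 20 m library 2 (11.1%). Zfp839 was then at an adjusted p of 0.0765, 0.0846 and 0.0676 (limma). Zfp703 was also lost without 2 m library 3 (adjusted p = 0.0639, limma), 28 m library 1 (adjusted p = 0.0633, limma) or 28 m library 3 (adjusted p = 0.0745, limma), and Zfp710 without 2 m library 2 (adjusted p = 0.136, limma) or 20 m library 3 (adjusted p = 0.0694, limma). None passed without the 3 libraries numbered 3 (6.62%) or with libraries rescaled to the same sum (4.63%). By the thresholds the study used, a fold over 2 with an unadjusted p under 0.05, taken here from limma on log2(normalized count + 1) and not from the DESeq2 test of the study, the members were Zfp760 and Zfp810, lower at 20 than at 2 months (where 5.17% of all genes met the rule), none between 28 and 20 months (1.31%), and Zfp808, higher at 28 than at 2 months (5.14%). These 3 were named after their values were seen, and none passed the adjustment. With a pseudocount of 5, 1 member met the thresholds between 20 and 2 months (4.77% of all genes) and 0 between 28 and 2 months (4.73%). Zfp760 was at 29.0, 47.6 and 47.6 at 2 months, 7.47, 21.9 and 24.0 at 20 months, and 15.2, 19.3 and 37.7 at 28 months. Zfp810 was at 31.2, 37.0 and 17.3 at 2 months, 16.8, 6.75 and 12.5 at 20 months, and 22.8, 30.4 and 11.3 at 28 months. Zfp808, whose transcript is near identical to Zfp934 over 15.1%, was at 4.46, 0 and 11.6 at 2 months, 5.60, 6.75 and 28.9 at 20 months, and 11.4, 12.4 and 37.7 at 28 months. All 3 genes had few reads and wide spreads within an age.

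Groups that did not overlap were seen in 17 members between 20 and 2 months, 12 higher and 5 lower, where 36.0% of all genes stood apart. The counts were 13 between 28 and 20 months, 4 higher and 9 lower (17.5% of all genes), and 17 between 28 and 2 months, 9 higher and 8 lower (30.3% of all genes). The median log2 difference of the 87 members was 0.10 between 20 and 2 months, -0.02 between 28 and 20 months and 0.12 between 28 and 2 months, beside -0.02, -0.00 and -0.01 over all genes tested. The first was 0.04 without 2 m library 1, 0.06 without 20 m library 3 and 0.17 without 2 m library 3. The median between 28 and 20 months ran from -0.07 without 20 m library 2 to 0.04 without 28 m library 2. The median between 28 and 2 months was 0.04 without 2 m library 1 and 0.026 without 28 m library 3. The difference was above 0 in 54, 41 and 47 members, and in 47.9%, 49.3% and 48.5% of all genes. The member median of a library varied within an age with an SD of 0.09. The 95% interval of the difference lay inside a 2-fold change either way for 63, 68 and 62 members in the 3 comparisons, and the median SE was 0.22, beside 0.15 over all genes.

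**Figure D3:**
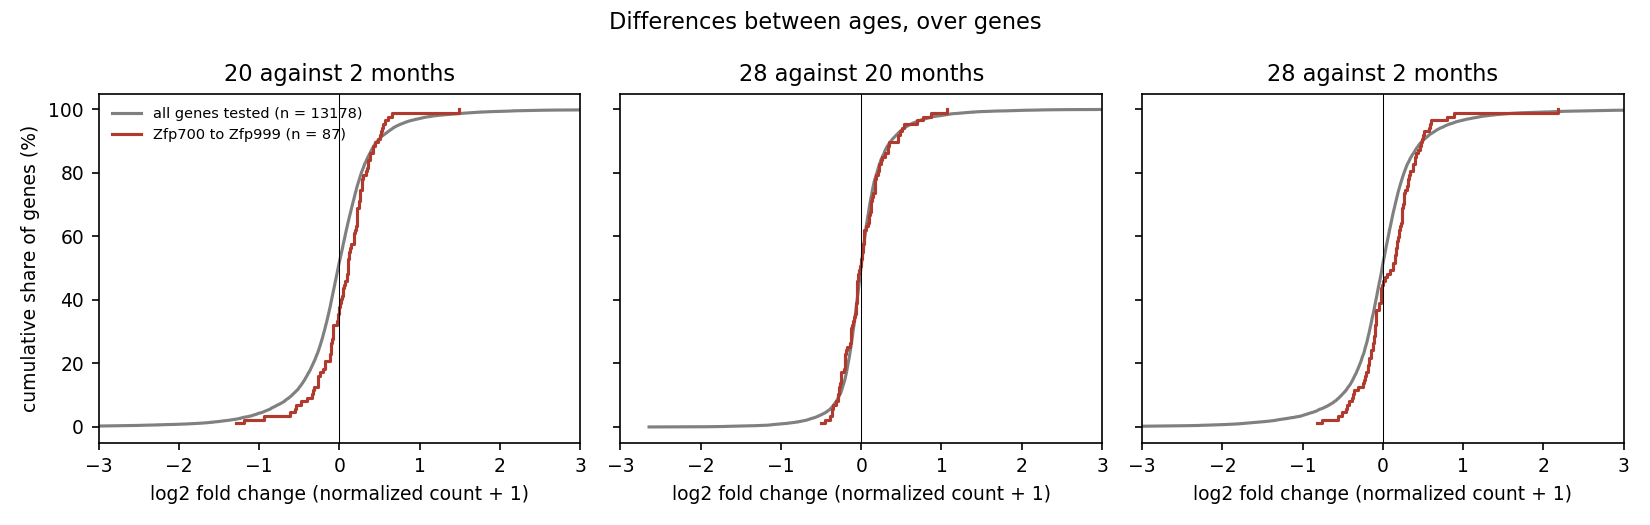
Cumulative share of genes (%) against the log2 fold change of the normalized count plus 1, for the 87 tested members (red) and all 13178 genes tested (grey), in the 3 comparisons of ages. The red curve lies to the right of the grey one at 20 and 28 against 2 months, with medians of 0.10 and 0.12, and along it at 28 against 20 months, with a median of -0.02. Leaving out 1 library at a time moves these medians to 0.04 to 0.17, 0.026 to 0.15 and -0.07 to 0.04.

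Members with a described role were followed whatever their values. Zfp809 recruits Trim28 to retroviral DNA in embryonic stem cells, and was at 78.0, 141 and 112 at 2 months, 116, 86.1 and 129 at 20 months, and 158, 123 and 138 at 28 months. Zfp932, which binds endogenous retroviruses, was at 66.9, 104 and 91.7 at 2 months, 44.8, 69.2 and 122 at 20 months, and 98.7, 93.9 and 119 at 28 months, and is near identical to Gm15446 over 8.63% of its transcript. Zfp708 was at 116, 118 and 157 at 2 months, 138, 118 and 165 at 20 months, and 144, 91.2 and 111 at 28 months. These genes with KRAB letters overlapped between all ages, and none of them passed a test. The intervals of the 28 m against 2 m difference were -0.17 to 0.90 for Zfp809, -0.45 to 0.97 for Zfp932 and -0.67 to 0.31 for Zfp708.

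Zfp961, with KRAB letters, was at 78.0, 88.1 and 130 at 2 months, 54.2, 75.9 and 109 at 20 months, and 96.8, 64.9 and 113 at 28 months. Zfp819, known from germ cells and stem cells, was at 0 in 6 libraries and at 1.76, 1.87 and 1.38 in the others, and was not tested. Zfp746, known as PARIS, a repressor of the Ppargc1a gene and a target of the ubiquitin ligase parkin, was at 403, 465 and 339 at 2 months, 456, 471 and 445 at 20 months, and 457, 447 and 425 at 28 months. The ages of Zfp746 overlapped, and its differences of 0.19 at 20 months and 0.15 at 28 months against 2 months did not pass.

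Among the members without KRAB letters, Zfp704 was at 1152, 1001 and 788 at 2 months, 940, 845 and 787 at 20 months, and 854, 836 and 781 at 28 months. Zfp830, needed for survival of early embryonic cells, was at 577, 613 and 622 at 2 months, 557, 526 and 604 at 20 months, and 564, 529 and 444 at 28 months, and its exons overlap those of Cct6b on the opposite strand. Zfp827, linked to telomere chromatin, was at 178, 287 and 260 at 2 months, 248, 236 and 221 at 20 months, and 245, 267 and 185 at 28 months. None of these passed a test. Zfp800 was at 145, 141 and 154 at 2 months, 189, 167 and 156 at 20 months, and 209, 142 and 176 at 28 months. Zfp750, a regulator of epidermal differentiation, was at 6.69, 24.7 and 22.4 at 2 months, 11.2, 5.06 and 34.3 at 20 months, and 11.4, 34.5 and 7.55 at 28 months. The X-linked Zfp711 ranged from 0.722 to 12.4 and was not tested.

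Of 24 symbols listed for partners of KRAB repression, 22 were in the table and all of these were tested. The others, Tasor and Fam208a, are symbols of 1 gene. Between 20 and 2 months 5 of the 22 passed, 3 higher and 2 lower, where 16.6% of all genes tested did. Atf7ip, a partner of Setdb1, rose by 0.58 (adjusted p = 0.00448, limma), the histone chaperone Daxx by 0.46 (adjusted p = 0.012, limma) and the chromatin remodeller Chd4 by 0.27 (adjusted p = 0.0447, limma). The DNA methyltransferase Dnmt3a fell by 0.61 (adjusted p = 0.00546, limma) and the remodeller Chd3 fell by 0.44 (adjusted p = 0.0141, limma). Between 28 and 20 months none passed, where 0.379% of all genes tested did. Between 28 and 2 months 3 of the 22 passed, where 13.8% of all genes tested did. Atf7ip was higher by 0.42 (adjusted p = 0.0267, limma), Dnmt3a was at -0.78 (adjusted p = 0.00136, limma) and the deacetylase Hdac2 at -0.34 (adjusted p = 0.00753, limma). Trim28 was at 1977, 1789 and 1967 at 2 months, 1919, 2128 and 1946 at 20 months, and 1812, 2070 and 1782 at 28 months. Neither Trim28 nor Setdb1, whose mean was 622, passed in a comparison.

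Each library also carries a number from 1 to 3 within its age. In a fit that kept age, the libraries numbered 3 were compared with those numbered 1 and 2. Zfp771, with 8 fingers and no KRAB letters, was at 577, 712 and 217 at 2 months, 560, 619 and 319 at 20 months, and 598, 517 and 213 at 28 months. It was lower by -1.27 in the libraries numbered 3, a fold of 0.414 (adjusted p = 0.000579, limma), and lowest there at every age. Zfp944, with KRAB letters, was at 196, 197 and 382 at 2 months, 222, 197 and 284 at 20 months, and 201, 157 and 298 at 28 months. It was higher by 0.71 in the libraries numbered 3, a fold of 1.64 (adjusted p = 0.0207, limma), and its neighbour Zfp942 is near identical to it over 11.5% of its transcript. These 2 were the members that passed, where 2.52% of all genes tested did, 0.296% higher and 2.22% lower.

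At an unadjusted p under 0.05, 19 members were higher and 3 were lower in the libraries numbered 3, where 6.64% of all genes were higher and 9.17% lower. The difference was above 0 in 58 of 87 members, beside 52.0% of all genes, with a median of 0.12. The 19 higher members all had KRAB letters. Among the 65 tested members with KRAB letters 47 were above 0 with a median of 0.23, and among the 22 without, 11 were above 0 with a median of -0.00. The library numbered 3 was the highest at all 3 ages for 19 members, where 8.64% of all genes showed this, and the lowest for 6, where 10.3% did.

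In the run of 10 members on chromosome 17, all 9 tested members were higher in the libraries numbered 3, with a median of 0.53. Of these, 7 were higher at an unadjusted p under 0.05, where 6.64% of all genes were. Zfp943 was at 724, 735 and 871 at 2 months, 723, 810 and 980 at 20 months, and 734, 552 and 930 at 28 months. Zfp758 was at 276, 219 and 293 at 2 months, 271, 312 and 436 at 20 months, and 304, 232 and 444 at 28 months. In both, the library numbered 3 was the highest at every age. In the other run on chromosome 17, at chr17:32765496-33033381, 1 of 5 tested members was above 0, and Zfp871 there was at -0.36 (adjusted p = 0.0617, limma). Elsewhere 5 of 6 tested members were above 0 in the run on chromosome 8, 5 of 6 on chromosome 13 and 3 of 7 on chromosome 6. On chromosome 7, 2 of 2 were above 0 at chr7:43177590-43618279 and 0 of 4 at chr7:127244526-127406822. The libraries numbered 3 also had the low Rn45s shares given above, and a smaller share of counts in rows that name no gene, 37.9% to 41.5% beside 44.0% to 47.7%. The part of either in these differences was not tested. Since each age held 1 library of each number, the numbers did not separate the ages.

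**Figure D4:**
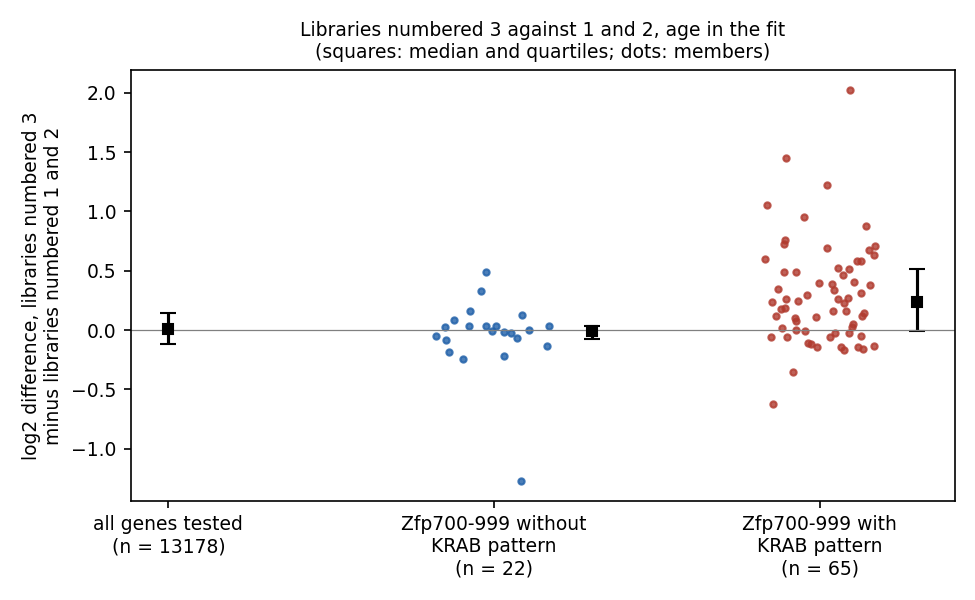
Difference between the libraries numbered 3 and those numbered 1 and 2 (log2 scale, age in the fit), for members with KRAB letters, members without them and all genes tested, with dots for members and squares with bars for the median and quartiles. Members with KRAB letters are centred at 0.23, and those without at -0.00.

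MBD-seq gave another readout that the choice of members had not used, with 1 pool of 3 mice per age and so no test. Capture from muscle was repeated on the same pooled DNA, and the deposited values do not say which round they hold. Values are the mean log2 of the normalized count plus 1 over 500-bp bins. In muscle the promoters of the 98 members, 1000 bp on each side of the start, averaged 2.34 at 2 months, 2.29 at 20 months and 3.08 at 28 months, beside 2.23, 2.18 and 2.94 over all genes tested. The value was higher at 28 than at 2 months in 83.7% of members and in 84.2% of all genes tested. The difference of members between 28 and 2 months, 0.75, was 0.36 as the log2 of the mean over bins, 1.14 with a pseudocount of 0.25 and 1.22 with the samples rescaled to the same sum. In T cells the members averaged 2.33, 2.50 and 2.47, and the difference between 28 and 2 months, 0.14, turned to -0.039 at the same sum and was 0.26 as the log2 of the mean over bins.

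Gene bodies of the members were lower than those of all genes in muscle, at 3.42, 3.44 and 3.91 beside 3.73, 3.70 and 4.02. Members with KRAB letters stood at 3.27, 3.32 and 3.84, and those without at 3.84, 3.81 and 4.10. The difference between 28 and 2 months was 0.57 for the former, 0.26 for the latter and 0.29 over all genes tested. As the log2 of the mean over bins the difference of the members turned to -0.17, beside -0.25 over all genes tested, and the deposited signal of muscle summed to 123104730 at 2 months and 90435044 at 28 months. The part of this sum in the differences was not tested. Over the last exon, which in these genes usually codes for the finger array, members averaged 4.38, 4.31 and 4.43 beside 4.43, 4.38 and 4.41. In T cells the bodies of members with KRAB letters were at 2.93, 2.95 and 2.94, beside 3.66, 3.78 and 3.76 over all genes. The spread over members was wide, with an SD of 0.79 at 2 months in muscle bodies.

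**Figure D5:**
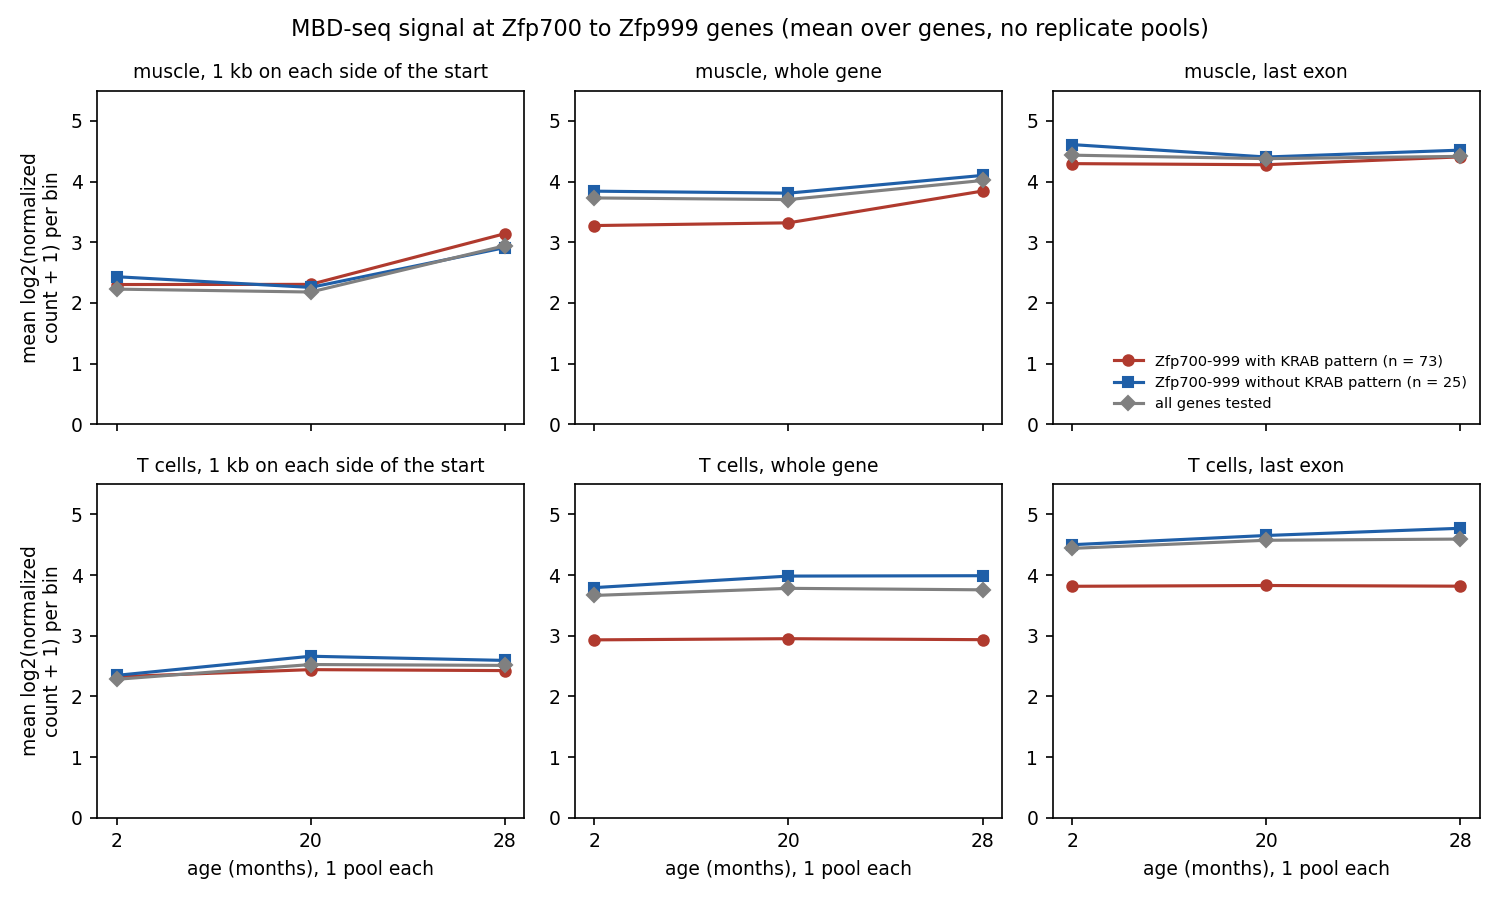
Mean MBD-seq signal (mean log2 of the normalized count plus 1 per bin) at 2, 20 and 28 months in muscle and T cells, over promoters, gene bodies and last exons, for members with and without KRAB letters and all genes tested. In muscle the promoter and body values are highest at 28 months on this scale, while as the log2 of the mean over bins the body difference of the members from 2 months is -0.17, and in T cells the bodies of members with KRAB letters lie below those of all genes.

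Promoter signal was higher in weakly expressed members, given here as a description. The 11 members under a mean of 10 averaged 3.62 at 2 months in muscle, and the 87 tested averaged 2.17, beside 3.08 over all genes under a mean of 10. Zfp831 had the highest value, 5.94, followed by Zfp750 at 5.16 and Zfp936 at 4.95, whose promoter is printed above with 6 CG. Zfp811, with 4 CG in the printed window, was at 0, and its mean RNA level was also low, at 3.90. Across the 98 members the Spearman correlation of RNA level with promoter signal was -0.43, -0.46 and -0.45 at the 3 ages, and across 23195 genes it was -0.33, -0.38 and -0.43. These are descriptions across genes, between RNA-seq libraries and MBD-seq pools of the same mice. The promoters differed in CG number, and the part of this was not tested. The 28 m against 2 m change in RNA and the change in promoter signal had a Spearman correlation of 0.00 over the 87 members.

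For the members that differed with age, the promoter signal in muscle at 2, 20 and 28 months was 2.54, 2.56 and 3.32 for Zfp770, 3.01, 2.29 and 2.88 for Zfp839, and 0.98, 1.30 and 1.81 for Zfp710. Zfp715 was at 2.53, 1.22 and 3.10. Zfp703 was low at every age, at 0.87, 0.28 and 0.65. With 1 pool per age these values have no error.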

How the data were processed

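RNA-seq covered 9 muscle libraries, 3 mice per age. The authors trimmed reads with Trim Galore, aligned them to mm10 (the methods name Hisat2 and the submitters' processing notes TopHat), counted them per refSeq gene with htseq-count in intersection-strict mode and divided by DESeq2 size factors. The strand setting is not given in the sources used here. The deposited signal values are therefore normalized counts, and 100% of nonzero values came out as whole reads within 0.01. MBD-seq reads were aligned by the authors with Bowtie2 and counted in 500-bp bins with bedtools, and the deposited signal was made the same way. Its columns name tissue and age but not the round of capture. Rows that name no gene (5, holding 37.9% to 47.7% of the table) were left out.

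Log2(normalized count + 1) of genes with a mean of at least 10 was fitted with limma 3.58.1 (trend, age only, all 9 libraries, R 4.3.3), with Benjamini-Hochberg adjustment over all 13178 genes and a threshold of 0.05. Fold changes on this scale understate changes of low genes. Alternatives were other pseudocounts, filters, scalings, terms, library sets, and count models on the reads recovered, with edgeR 4.0.16 (3 members called at 20 against 2 months, and 16.7% of all genes) and DESeq2 1.42.0 (4 called, and 19.4%). The scaling without Rn45s was added after the data were seen. Tested on simulated data at 20 against 2 months over 13178 genes, the fit recovered 73.1% of 1.5-fold, 97.0% of 2-fold and 100% of 3-fold changes. The simulation gave every gene the same dispersion and changed only genes with means of at least 50. In the data the members had a median SE of 0.22 beside 0.15 over all genes, so these rates do not give the recovery of changes in members.

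Positions are RefSeq GRCm38.p6, and all 98 members matched. Near identity was at least 98% over 75 bp (BLAST+ 2.17.0). A finger was C, 2 to 4 residues, C, 12 residues, H, 3 to 5 residues, H. Named members were those called, the 6 with the smallest p where fewer than 6 were called, the 6 highest means, the 4 highest per kb, members with a described role and the 2 nearest each side of the limit. Members of the chromosome 17 run were added after their values were seen. Members and lists were chosen with earlier results of these data known.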

Additional observations from a re-analysis of the deposited data

How the results depend on the processing

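Among 835 repeats of 39 results for named members over 22 settings, 777 stayed on the same side of the threshold, 42 lost it and 16 gained it. Only results called in the main fit could lose a call, and each of these kept it in 14 to 21 of its 21 or 22 repeats. No difference between 2 ages changed sign, and the F test results have no sign. With libraries rescaled to the same sum, which lets the Rn45s share set the scale, 0 members were called at 20 or 28 against 2 months or at any age, while 4.45%, 4.20% and 4.63% of all genes passed in these. Rescaling without Rn45s, chosen after seeing the data, gave 3, 3 and 4 (14.8%, 13.5% and 14.9% of all genes). Library numbers were checked as pairs: the deviations of same-numbered libraries correlated over 0.1 for all genes only for number 3 (0.11 to 0.16), and not for numbers 1 and 2 (at most 0.10), so the numbers were not taken as pairs. Over the members the correlations were 0.32 to 0.65 for number 3, 0.04 to 0.27 for number 1 and -0.10 to 0.15 for number 2. With the replicate block 6 members were called at 20 against 2 months (22.8% of all genes), adding Zfp946, Zfp862 and Zfp759, and with a term for the libraries numbered 3 also 6 (21.6%). At 28 against 2 months both called 4 (19.2% and 18.4% of all genes), the fourth being Zfp710, which was lower (adjusted p = 0.0153 with the replicate block, limma). At any age the block called 6 (22.6%), adding Zfp715 and Zfp777, and the term 5 (21.7%), adding Zfp715. With no filter on low values 4 were called at 28 against 2 months, adding Zfp781. Without all 3 libraries numbered 3, 0 were called at 28 against 2 months (5.40% of all genes) and at any age (6.62%), and 3 at 20 against 2 months (8.34%). At 28 against 20 months 0 were called in every setting. Leaving out 1 library at a time gave 2 to 4 called at 20 against 2 months (8.20% to 16.9% of all genes), 0 to 3 at 28 against 2 months (7.31% to 14.0%, and 8.40% where 0 were called) and 1 to 4 at any age (9.28% to 16.0%). The median difference of members then ran from 0.04 to 0.17, from 0.026 to 0.15 at 28 against 2 months, and from -0.07 to 0.04 at 28 against 20 months, where it also changed sign with the scaling (0.01 at the same sum, 0.06 without Rn45s) and in DESeq2 (0.000785). The fewest were called at any age, 1, without 2 m library 1, and 2 each without 20 m library 1 or 2. At 28 against 2 months, 1 was called without 28 m library 1 or 3, and 0.026 was the median without 28 m library 3. For MBD-seq, the 28 minus 2 month difference of members was 0.75 at muscle promoters. It was 1.14 with a pseudocount of 0.25, 1.22 at the same sum, 0.78 within 500 bp and 0.36 as the log2 of the mean over bins. At T cell promoters it was 0.14, and under the same alternatives 0.10, -0.039, 0.14 and 0.26. In muscle bodies it was 0.49, and 0.71 with that pseudocount, 0.96 at the same sum, 0.060 over the last exon and -0.17 as the log2 of the mean. In T cell bodies it was 0.05, and -0.025, -0.16, 0.070 and 0.31. The direction of the body differences therefore depends on the scale, and the cause was not tested. Members at means of 10 to 100 had a median CV within an age of 29.9% beside 11.5% above.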
